A study of Homo sapiens with 37 samples.

Results

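The genes described here are 35 direct targets of the transcription factor p53, taken by symbol from a fixed list out of the 57773 genes counted in each library. All 35 matched 1 Ensembl identifier, and all 35 passed the filter on low counts in each of 9 comparisons between treated and control human cells. The rule that chose them used no measured value of these libraries, but the list was drawn up with earlier results of these data known. They were ranked by the number of comparisons in which they were called higher, that is, at a Benjamini-Hochberg adjusted p below 0.05 in edgeR's quasi-likelihood test over all genes.

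p53 is held at a low level in unstressed cells because the ubiquitin ligase MDM2 marks it for degradation. DNA damage, strong oncogene signals and eroded telomeres activate kinases that free p53 from MDM2, and the stabilised protein binds response elements near its target genes and raises their transcription. The targets include its own inhibitors, arrest and repair genes, genes of cell death and genes of metabolism, and in senescent cells, which have left the cell cycle for good, the p53 target CDKN1A holds back the cyclin-dependent kinases.

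Total RNA was sequenced after removal of ribosomal RNA in 37 libraries of 17 groups. Human aortic endothelial cells (HAEC, population doubling level 4 to 6) and human umbilical vein endothelial cells (HUVEC, level 3 to 5) were left untreated or given 4 Gy of ionizing radiation, with 2 HAEC controls, 3 irradiated HAEC libraries and 3 libraries in each HUVEC group. IMR-90, a strain of diploid human lung fibroblasts, was studied as proliferating cells at level 15, after 10 Gy at level 15, and at level 52 after replicative exhaustion, called late passage here, with 2 libraries each. WI-38, another strain of diploid lung fibroblasts, was used at level 25 and is treated here as 2 sets of libraries, each with 2 libraries per group. The first set held cells given 2 µg/mL doxorubicin, a topoisomerase poison that breaks DNA, for 24 h, their untreated controls, cells carrying a lentivirus for the oncogene HRAS G12V and cells carrying an empty vector, both vectors used at a multiplicity of infection of 10 and with 1 µg/mL puromycin. The second set held a repeat of the doxorubicin treatment with its own controls, cells given 10 Gy with their own controls, and late-passage cells at level 53 to 55 with proliferating controls. The labels call every treated or late-passage group senescent except irradiated IMR-90, which they call treated, and do not say how long after treatment the RNA was taken or whether libraries of a group came from separate cultures. All p-values therefore measure the spread between these libraries, which may be technical.

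The libraries held 102293388 to 370996204 counts, and counts of the 35 targets made up 0.11% to 0.30% of them. Protein-coding genes took 50.7% to 66.9% of the counts in the other 25 libraries and 82.0% to 91.1% in the 12 libraries of the second WI-38 set, and mitochondrial genes took 0.10% to 0.61% and 3.21% to 14.02%. The second set thus stands apart, and its spread between libraries was also wider, with a common biological coefficient of variation of 38.1% against 5.69% to 16.3% in the other sets. Levels below are CPM, counts scaled to the library size with TMM factors within a set, and fold changes are on the log2 scale of treated over control. All 7 endothelial markers averaged at least 1 CPM in HAEC and HUVEC, all 8 fibroblast markers did so in IMR-90 and WI-38, and none of 5 leukocyte markers reached it in any cell type. Of 5 epithelial markers, EPCAM and CDH1 were below 1 CPM in all 4 cell types, and the keratins KRT8, KRT18 and KRT19 were at or above it in all 4, with KRT18 at 191, 193 and 193 CPM in HUVEC controls and 109 and 105 in HAEC controls. Fibroblast markers at or above 1 CPM numbered 5 of 8 in HAEC and 4 of 8 in HUVEC, where all 8 summed to at most 38.75 CPM. Endothelial markers did so for 5 of 7 in IMR-90 and 1 of 7 in WI-38, and TEK, a receptor of endothelial cells, made up most of their sum, at 236 and 237 CPM in proliferating IMR-90 against 179 and 177 in HAEC controls. The markers of the labelled cell types were thus all detected, and keratins and TEK were detected outside epithelium and endothelium. In whole-culture RNA, fewer cells of a type and less RNA per cell cannot be told apart.

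The promoter sequences of RefSeq (GRCh38.p14, from 250 bases before to 50 bases after each start) were matched for 28 of the 35 targets, in 40 windows. They were searched for the p53 response element, a pair of half-sites of 10 bases, each with the core CNNG, separated by at most 13 bases and with at most 2 mismatches in all. The element reads as its own reverse complement, so that 1 search covers both strands. It was present in 5 of the 40 windows (12.5%), against 2.93% of all 35116 windows, and in 4 of the 28 genes (14.3%), against 3.62% of 27305 genes. At least 1 exact half-site, with or without the full element, was present in 17.5% of the targets' windows and 6.63% of all windows. A match is a description of letters, and an element outside these windows, such as in an intron, was not looked for. All 4 targets with an element are shown. In the ranking of responses given below they run from MDM2, the fifth, to AEN, the last but 1. The half-sites are in capitals, and the bases before the element are added where it ends before the start.
MDM2 (chr12:68808767-68809066, plus strand, element from -94 to -75): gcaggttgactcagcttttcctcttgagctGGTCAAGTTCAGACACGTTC
FDXR (chr17:74872945-74873244, minus strand, element from -31 to -2): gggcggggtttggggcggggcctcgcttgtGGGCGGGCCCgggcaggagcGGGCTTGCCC
DDB2 (chr11:47214724-47215023, plus strand, element from 6 to 26): GAACAAGCCCtGGGCATGTTT
AEN (chr15:88621090-88621389, plus strand, element from -34 to -15): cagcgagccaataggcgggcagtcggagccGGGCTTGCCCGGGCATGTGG
The DDB2 element, with 0 mismatches and a spacer of 1 base, was the only one of the 4 without a mismatch, whereas those of MDM2, FDXR and AEN each had 2. The same MDM2 element also lies in a second, overlapping window. Other windows of these genes held no element. They were chr12:68807922-68808221 and chr12:68807927-68808226 for MDM2, chr11:47214204-47214503 for DDB2 and chr17:74868704-74869003 for FDXR. DDB2 was called higher in 4 of the 9 comparisons and AEN in 3, against 7 for MDM2 and 5 for FDXR.

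The first question was how many of the targets responded to each trigger. After 4 Gy, 26 of the 35 were called higher and 4 lower in HAEC, where 19.7% of all genes tested were called higher and 19.9% lower. In HUVEC the counts were 26 and 5, beside 18.6% and 20.1% of all genes. After 10 Gy, IMR-90 had 27 targets higher and 1 lower, with 26.6% and 22.5% of all genes called, and late-passage IMR-90 had 26 higher and 2 lower, with 26.6% and 23.5%. These IMR-90 comparisons share their control libraries. In the first WI-38 set, doxorubicin gave 22 higher and 2 lower, beside 13.6% and 13.2% of all genes, and HRAS G12V gave 27 higher and 0 lower, beside 27.1% and 18.9%. At an unadjusted p below 0.05, 2 targets were lower in edgeR with HRAS G12V, and DESeq2 called 0 lower.

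The second WI-38 set gave smaller counts. The repeat of doxorubicin had 1 target higher and 0 lower, beside 3.18% and 2.26% of all genes. At an unadjusted p below 0.05 in edgeR 1 was higher and 2 were lower, and DESeq2 called 1 and 0. Mitochondrial genes took 3.58% and 5.11% of the counts in the repeat controls and 5.78% and 5.61% with the drug. The 8 fibroblast markers summed to between 3433 and 5127 and to between 6826 and 8811 CPM. What these shifts did to the target values was not tested. Irradiated WI-38 had 13 higher and 1 lower, beside 8.89% and 6.09% of all genes. RNA composition moved with this comparison: mitochondrial genes took 6.31% and 6.99% of the counts in its controls and 9.72% and 14.02% after 10 Gy, and protein-coding genes 87.96% and 87.4% against 86.49% and 82.05%. Summed markers moved as well, from 4903 and 5149 to between 6611 and 6903 CPM for the 8 fibroblast genes, from at most 59.76 to between 112.2 and 147.3 for the 7 endothelial genes, and from between 40.36 and 50.31 to between 18.99 and 23.23 for the 5 epithelial genes. The endothelial sum mostly follows TEK, the 1 of them that averaged at least 1 CPM in WI-38. Of the 6 endothelial genes tested, 1 was called higher and 0 lower, and 1 was lower at an unadjusted p below 0.05 in edgeR. Their median log2 fold change was -1.20. The part of RNA composition and markers in the target changes after 10 Gy was not tested. Late-passage WI-38 had 0 higher and 5 lower, beside 5.8% and 6.82%. Here mitochondrial genes took 3.21% and 4.41% of the counts in proliferating controls and 8.71% and 5.78% at late passage. The 8 fibroblast markers summed to between 5349 and 5437 and to between 3572 and 3792 CPM. What these shifts did to the late-passage target values was not tested. In that comparison 1 target was higher and 10 were lower at an unadjusted p below 0.05 in edgeR, and DESeq2 called 0 and 7. Without either of its 2 control libraries, the 13 targets called higher in irradiated WI-38 dropped to 4. The single call of the repeat was lost without control library 1 or treated library 1, and the 5 lower calls at late passage fell to between 0 and 2 when any of the 4 libraries was left out.

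**Figure D1:**
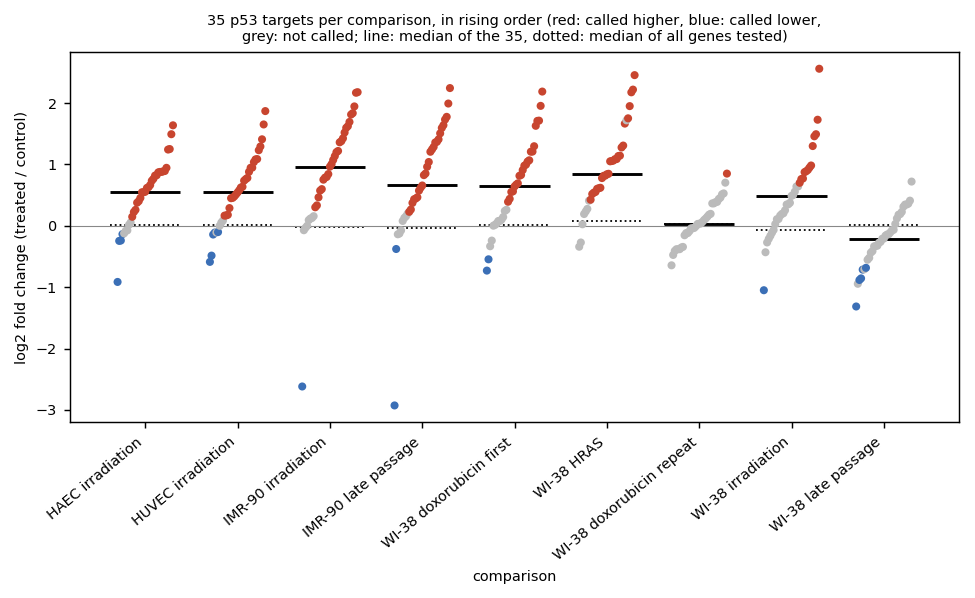
Each point is 1 of the 35 targets, placed by its log2 fold change (vertical axis) in each of the 9 comparisons (horizontal axis), in rising order. Red and blue mark calls at an adjusted p below 0.05, the line is the median of the 35 and the dotted line the median of all genes tested, and the median of the 35 stands at 0.49 or more in 7 comparisons and near or below 0 in the doxorubicin repeat and late-passage WI-38.

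The median of the 35 log2 fold changes was 0.56 in HAEC and 0.54 in HUVEC, where the median of all genes tested was 0.01 in both. It was 0.96 in irradiated and 0.66 in late-passage IMR-90, 0.64 with the first doxorubicin treatment, 0.84 with HRAS G12V and 0.49 in irradiated WI-38. With the doxorubicin repeat it was 0.04, the same as the median of all genes, and in late-passage WI-38 it was -0.21 against 0.01. Scaling by total counts in place of TMM lowered the median of all genes to -0.27 in irradiated IMR-90, -0.24 in late-passage IMR-90, -0.16 with doxorubicin, -0.20 with HRAS G12V and -0.18 in irradiated WI-38. The targets then split into 24 higher and 4 lower in irradiated IMR-90, 22 and 5 in late-passage IMR-90, 17 and 4 with the first doxorubicin treatment, 18 and 2 with HRAS G12V, where TMM gave 27 and 0, and 11 and 1 in irradiated WI-38, so that higher calls still outnumbered lower ones.

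**Figure D2:**
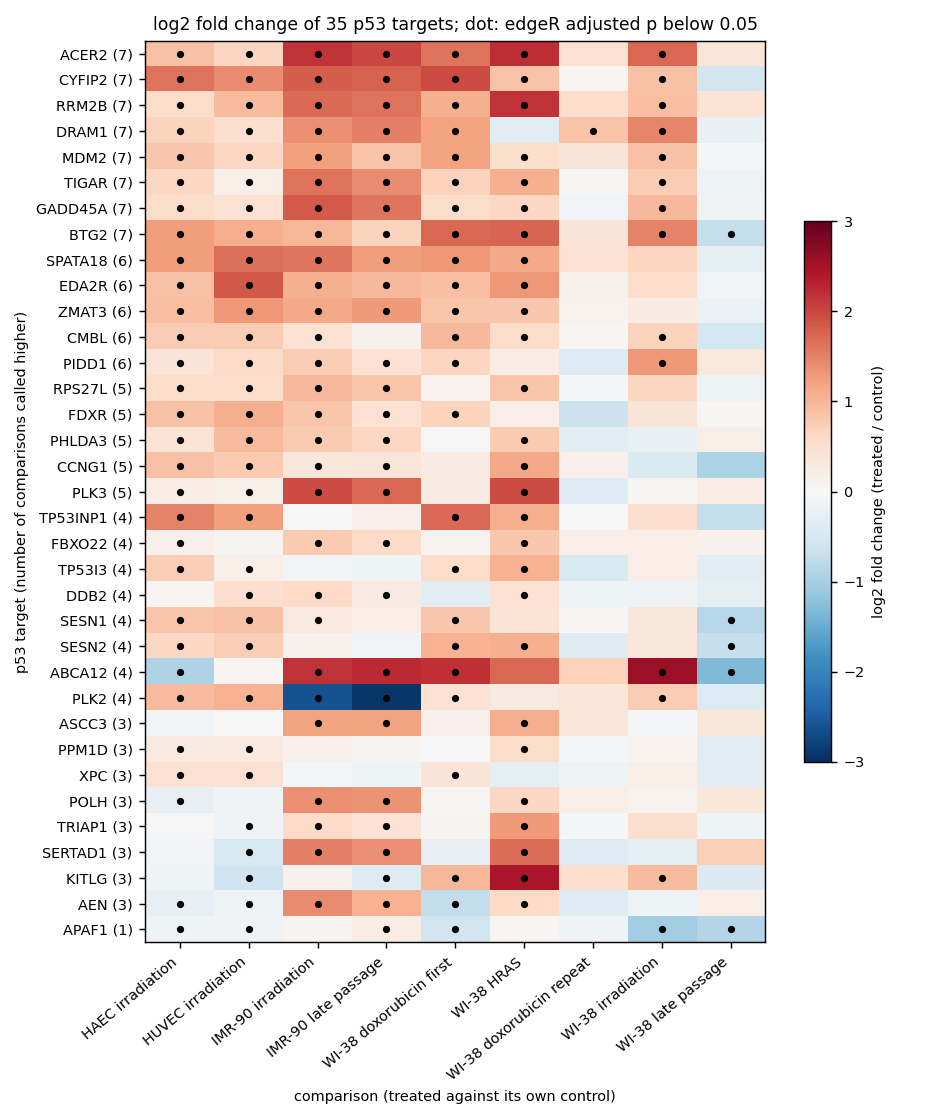
Rows are the 35 targets in order of consistency, with the number of comparisons called higher in brackets, and columns are the 9 comparisons. Colour is the log2 fold change, limited to 3 in either direction, and a dot marks an adjusted p below 0.05; the first 8 rows are red and dotted in 7 columns each, and PLK2 is dark blue in both IMR-90 columns.

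Over the 9 comparisons the 35 targets gave 315 tests, of which 168 were called higher and 20 lower. The shares of all genes given above ran from 3.18% to 27.1% higher and from 2.26% to 23.5% lower per comparison. No target was called higher in 8 or 9 comparisons. The first 8, each called higher in 7, were ACER2, CYFIP2, RRM2B, DRAM1, MDM2, TIGAR, GADD45A and BTG2, in order of fewer lower calls and then of their median. SPATA18, EDA2R, ZMAT3, CMBL and PIDD1 were called higher in 6 comparisons, and RPS27L, FDXR, PHLDA3, CCNG1 and PLK3 in 5. Another 8 were called in 4 and 8 more in 3, and APAF1 was called in 1. With 24 members, most of the list was never called lower, 11 were called lower at least once and 5 in 2 or more comparisons. Counted by trigger (radiation, doxorubicin, HRAS G12V and late passage), 10 targets were called higher with all 4: ACER2, CYFIP2, RRM2B, MDM2, TIGAR, GADD45A, BTG2, SPATA18, EDA2R and ZMAT3. ACER2, RRM2B and FBXO22 had a log2 fold change above 0 in all 9 comparisons. How many of all genes were called higher in 7 comparisons or with all 4 triggers, or never lower, was not counted. When irradiated IMR-90 was left out of the ranking the same 8 targets came first, and when late-passage IMR-90 was left out 7 of them did. A threshold of 0.01 left 2 of them with 7 comparisons or more.

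**Figure D3:**
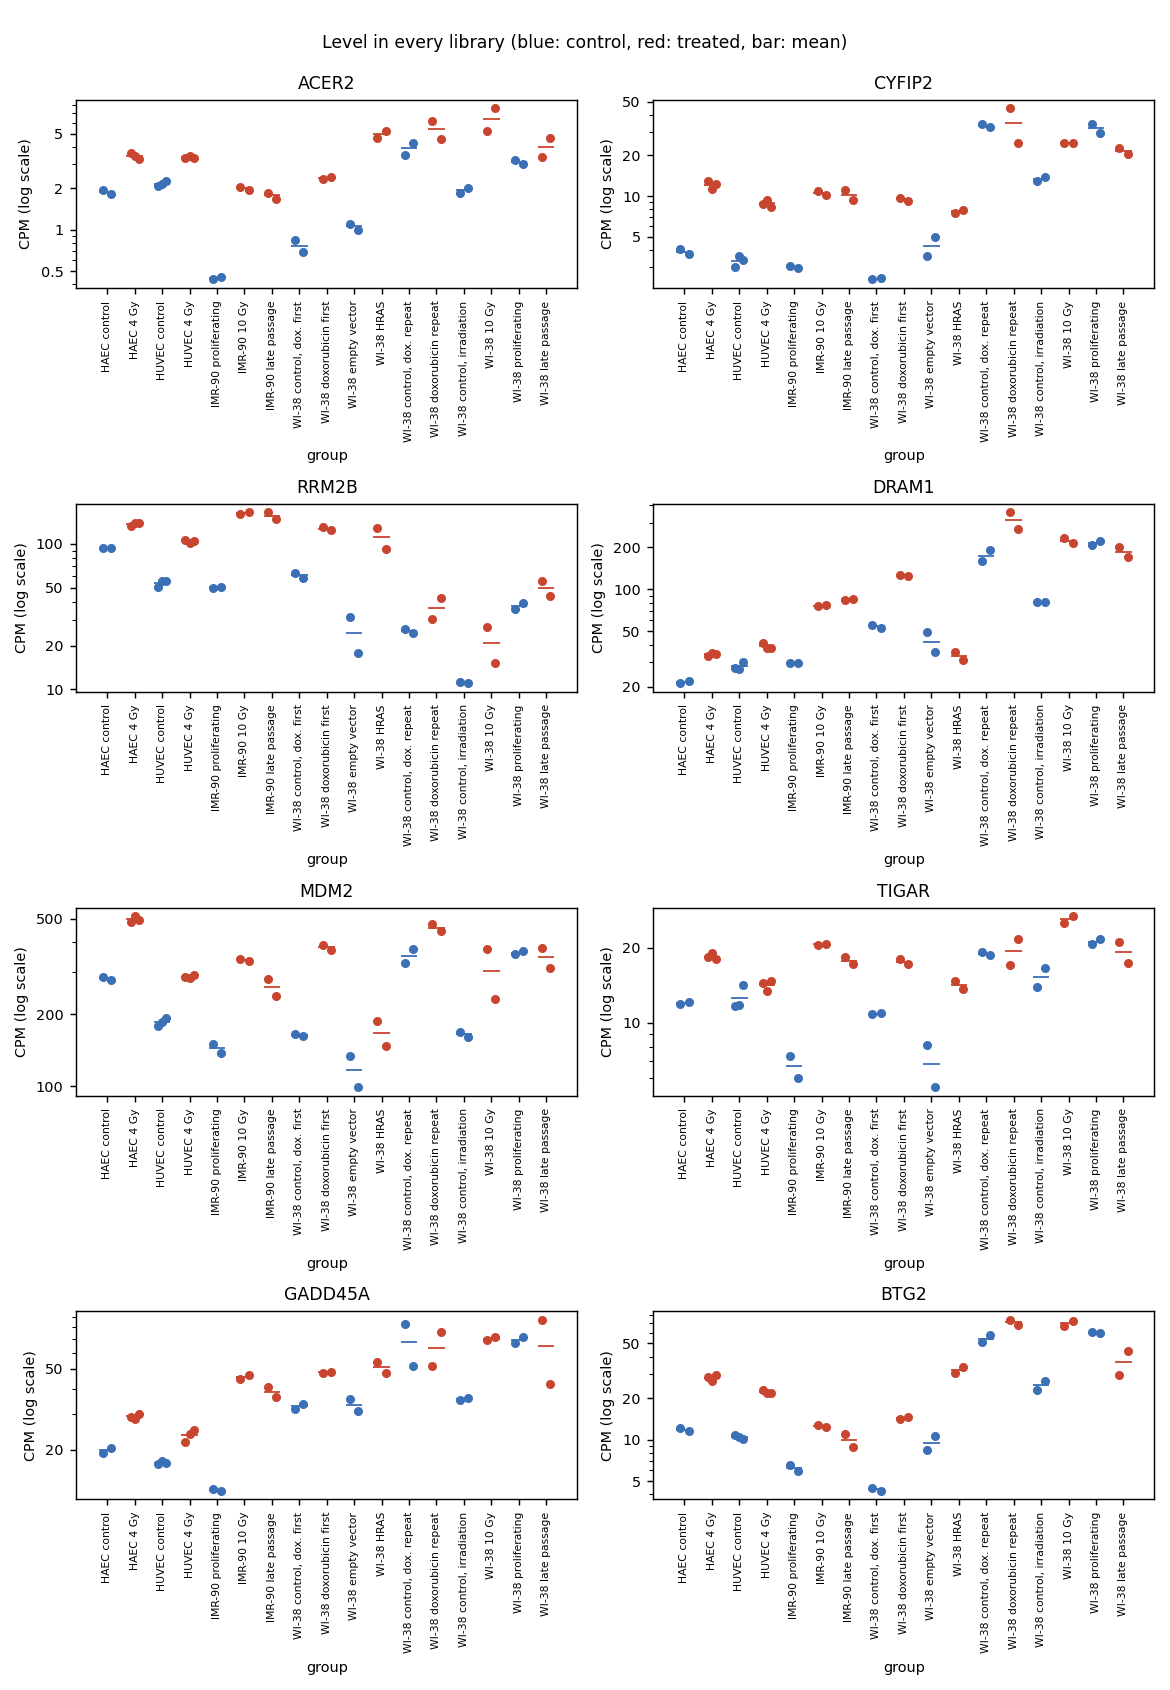
Each point is the level of 1 of the first 8 targets in 1 library, in CPM on a log axis, for the 17 groups, with controls in blue, treated cells in red and a bar at the mean. Treated libraries stand above their controls in most pairs of groups, and the 12 libraries of the second WI-38 set, on the right, show high control levels of CYFIP2, DRAM1 and BTG2.

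Among the targets that act back on p53, MDM2 itself was the most consistent. It stood at 286 and 277 CPM in HAEC controls and 486, 512 and 494 after 4 Gy, and at 178, 184 and 193 in HUVEC controls and 284, 282 and 291 after 4 Gy. In IMR-90 it went from 149.6 and 138 in proliferating cells to 339 and 331 after 10 Gy and 281 and 238 at late passage. Control and treated libraries did not overlap in any of these 4 comparisons. MDM2 was at 166 and 163 in the doxorubicin controls and 388 and 371 in treated cells, and at 134 and 99.3 with the empty vector and 186 and 147 with HRAS G12V. In the second WI-38 set it was 327 and 374 without and 474 and 442 with the doxorubicin repeat, 168 and 161 in the irradiation controls and 373 and 230 after 10 Gy, and 354 and 366 in proliferating and 377 and 312 in late-passage cells. The lowest control levels of that set belonged to the irradiation controls, and the late-passage libraries lay on both sides of the proliferating ones. The log2 fold change was highest in irradiated IMR-90 at 1.22 (SE 0.07, adjusted p = 8.6e-09) and with doxorubicin at 1.21 (SE 0.16, adjusted p = 1.4e-04), and lowest among the calls with HRAS G12V at 0.52 (SE 0.16, adjusted p = 0.018). Leaving out empty vector library 2 brought the last to 0.23 and leaving out HRAS library 1 to 0.34, both no longer called. The WI-38 irradiation call, 0.88 (SE 0.21, adjusted p = 0.013), was lost without either control library or without irradiated library 1. Of the distinct 31-base stretches of the MDM2 transcripts, 19.5% also occur in transcripts of other genes, on either strand. How far this affects its counts was not tested.

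GADD45A, a stress protein that binds proliferating cell nuclear antigen and cyclin-dependent kinase 1 complexes, had its largest changes in IMR-90. It was at 12.9 and 12.6 CPM in proliferating IMR-90, 44.5 and 46.5 after 10 Gy and 40.8 and 36.2 at late passage, a log2 fold change of 1.84 (SE 0.07, adjusted p = 6.8e-11) and 1.59 (SE 0.07, adjusted p = 2.5e-10). Endothelial values were 19.3 and 20.5 in HAEC controls against 29.03, 28.4 and 30.1 after 4 Gy, and 16.96, 17.7 and 17.3 in HUVEC controls against 21.9, 24 and 25.1. The groups did not overlap in these 4 comparisons. In the first WI-38 set it stood at 31.9 and 33.7 without and 47.6 and 48.5 with doxorubicin, and at 35.7 and 31.1 with the empty vector and 54.1 and 47.9 with HRAS G12V. The doxorubicin call, 0.55 (SE 0.13, adjusted p = 0.007), was lost when any 1 of its 4 libraries was left out, with values of 0.51 to 0.59. In the second set GADD45A was at 35 and 35.98 in the irradiation controls and 68.9 and 71.4 after 10 Gy, at 83.3 and 51.5 in control and 51.4 and 75.5 in treated libraries around the doxorubicin repeat, and at 66.8 and 71.98 in proliferating and 86.9 and 42.1 in late-passage cells. The last 2 pairs of groups overlapped, and the WI-38 irradiation call, 0.98 (SE 0.30, adjusted p = 0.041), was lost without either control library or without irradiated library 2.

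BTG2, an antiproliferative protein that recruits deadenylases to messenger RNA, was called higher in 3 WI-38 comparisons and lower in 1. With doxorubicin it went from 4.48 and 4.25 to 14.1 and 14.6 CPM, with HRAS G12V from 8.39 and 10.6 to 30.3 and 33.7, and with 10 Gy from 22.8 and 26.7 to 66.4 and 73.2. These are log2 fold changes of 1.71 (SE 0.15, adjusted p = 5.0e-06), 1.75 (SE 0.15, adjusted p = 1.9e-06) and 1.49 (SE 0.21, adjusted p = 1.9e-04). In late-passage WI-38 it was called lower, from 60.6 and 60 to 29.3 and 44.2 CPM, at -0.71 (SE 0.20, adjusted p = 0.032). That call was lost without late-passage library 1, at -0.41, and without either proliferating library. Around the doxorubicin repeat BTG2 was at 51.3 and 57.2 in controls and 74.1 and 68.1 in treated cells, and did not pass the test. In endothelium it rose from 12.1 and 11.6 to 28.4, 26.8 and 29.3 in HAEC and from 10.8, 10.4 and 10.1 to 22.8, 21.9 and 21.8 in HUVEC, more than any other target of growth arrest did there. IMR-90 libraries stood at 6.59 and 5.91 before, 12.8 and 12.2 after 10 Gy and 10.9 and 8.77 at late passage. Treated libraries were above all their controls in each of these 4 comparisons.

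CYFIP2, a subunit of the WAVE complex of actin assembly that p53 induces in apoptosis, had the largest log2 fold change of all 35 targets in HAEC, 1.64 (SE 0.08, adjusted p = 1.8e-12), from 4.03 and 3.73 to 12.9, 11.2 and 12.2 CPM. HUVEC went from 2.97, 3.64 and 3.36 to 8.74, 9.43 and 8.28, and IMR-90 from 3.05 and 2.92 to 10.8 and 10.2 after 10 Gy and 11.1 and 9.33 at late passage. No treated library overlapped a control in these 4 comparisons. With the first doxorubicin treatment it rose from 2.42 and 2.47 to 9.73 and 9.26, 1.96 (SE 0.17, adjusted p = 5.1e-06), and with HRAS G12V from 3.61 and 4.95 to 7.53 and 7.87, 0.85 (SE 0.17, adjusted p = 0.0013). In the doxorubicin repeat the controls stood at 33.95 and 32.5 and the treated libraries at 44.5 and 24.9, so that the groups overlapped. The irradiation controls of the same set were at 12.9 and 13.9 and the irradiated libraries at 24.9 and 24.7, the proliferating libraries at 33.9 and 29.5, and the late-passage libraries at 22.9 and 20.3. The irradiated level of this set thus lay below the level of the other 2 control groups, and the call at 0.89 (SE 0.23, adjusted p = 0.019) was lost without either irradiation control library.

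RRM2B, the p53-induced small subunit of ribonucleotide reductase that supplies deoxynucleotides for repair, rose from 49.9 and 50.5 CPM in proliferating IMR-90 to 159.7 and 165 after 10 Gy and 165 and 148 at late passage. Its highest log2 fold change came with HRAS G12V, 2.18 (SE 0.23, adjusted p = 1.3e-05), from 31.3 and 17.8 with the empty vector to 129 and 92.5. Doxorubicin raised it from 63.3 and 58.4 to 129.7 and 125. The groups did not overlap in any of these comparisons. In endothelium RRM2B rose from 93.3 and 93.9 to 133, 139 and 138 in HAEC and from 50.5, 55.95 and 55.99 to 106, 102 and 105 in HUVEC. Among the second WI-38 set, the irradiation controls were at 11.2 and 11.04 and the irradiated libraries at 26.7 and 15.1, the doxorubicin repeat at 26 and 24.6 without and 30.7 and 42.2 with the drug, proliferating cells at 35.6 and 39.3, and late-passage cells at 55.8 and 43.7. Treated libraries were above their controls throughout this set too, but the call after 10 Gy alone passed, at 0.91 (SE 0.25, adjusted p = 0.024). That call was lost without either control library, and at 0.41 without irradiated library 1.

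ACER2, a Golgi ceramidase that releases sphingosine, led the ranking from a low level. It was at 0.435 and 0.455 CPM in proliferating IMR-90, 2.05 and 1.95 after 10 Gy and 1.86 and 1.68 at late passage, log2 fold changes of 2.17 (SE 0.19, adjusted p = 3.3e-07) and 1.99 (SE 0.19, adjusted p = 8.2e-07). In the first WI-38 set it rose from 0.838 and 0.689 to 2.33 and 2.4 with doxorubicin and from 1.11 and 1.00 to 4.63 and 5.21 with HRAS G12V. HAEC went from 1.93 and 1.82 to 3.58, 3.44 and 3.29 and HUVEC from 2.08, 2.15 and 2.26 to 3.34, 3.40 and 3.33. Every treated library stood above every control in these 6 comparisons. The second WI-38 set had 1.86 and 2.01 in the irradiation controls and 5.18 and 7.62 after 10 Gy, 1.73 (SE 0.27, adjusted p = 5.7e-04). Around the doxorubicin repeat the values were 3.51 and 4.30 in control and 6.19 and 4.54 in treated libraries, and 3.23 and 2.99 in proliferating and 3.38 and 4.61 in late-passage cells, and neither passed the test. None of the 7 ACER2 calls was lost when 1 library was left out. Of the distinct 31-base stretches of the ACER2 transcripts, 18% also occur in another gene, on either strand.

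DRAM1, a lysosomal membrane protein of autophagy, was the 1 target called in the doxorubicin repeat, where it went from 158 and 189 to 356 and 270.4 CPM, 0.85 (SE 0.19, adjusted p = 0.016). The call was lost without control library 1, at 0.73, or without treated library 1, at 0.64. In the first doxorubicin treatment it rose from 55.3 and 52.9 to 127 and 124, 1.21 (SE 0.15, adjusted p = 1.1e-04). With HRAS G12V DRAM1 stood at 48.9 and 35.3 with the empty vector and 35.2 and 31.3 with the oncogene, -0.34 (SE 0.15, adjusted p = 0.088). It rose from 21.2 and 21.8 to 32.9, 34.9 and 34.2 in HAEC and from 27.4, 26.7 and 29.9 to 40.8, 38.1 and 38.1 in HUVEC. IMR-90 went from 29.6 and 29.6 to 75.1 and 77.2 after 10 Gy and 83.6 and 85.02 at late passage, the highest fold of DRAM1 at 1.51 (SE 0.06, adjusted p = 3.6e-11). After 10 Gy in WI-38 it went from 81.1 and 80.8 to 232 and 213, 1.46 (SE 0.19, adjusted p = 1.2e-04), while proliferating WI-38 stood at 207 and 222 and late-passage WI-38 at 199.7 and 171.

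TIGAR, a fructose bisphosphatase that diverts glucose from glycolysis, rose from 7.38 and 6.00 CPM in proliferating IMR-90 to 20.5 and 20.8 after 10 Gy, 1.62 (SE 0.09, adjusted p = 3.3e-09), and 18.3 and 17.2 at late passage. HRAS G12V took it from 8.13 and 5.53 to 14.7 and 13.7 and doxorubicin from 10.8 and 10.9 to 17.98 and 17.2. In HAEC it rose from 11.9 and 12.1 to 18.3, 19.02 and 17.98. In HUVEC, where controls were at 11.7, 11.8 and 14.1 and irradiated libraries at 14.5, 13.4 and 14.7, the groups overlapped, and the call at 0.18 (SE 0.07, adjusted p = 0.038) was lost without control library 1 or 2 or irradiated library 1 or 3, and rose to 0.27 without control library 3. The doxorubicin call, 0.69 (SE 0.17, adjusted p = 0.0097), was lost without either control library or treated library 1. TIGAR in the second WI-38 set was at 13.9 and 16.6 in control and 25.1 and 26.8 in treated libraries around irradiation, at 19.2 and 18.6 in control and 17.1 and 21.6 in treated libraries around the doxorubicin repeat, and at 20.6 and 21.7 in proliferating and 21.1 and 17.3 in late-passage libraries around late passage. The irradiation call, 0.77 (SE 0.20, adjusted p = 0.015), was lost without either control library or irradiated library 2. A gene on the same strand, AC008012.1, overlaps 42.6% of the exon bases of TIGAR, so reads of both cannot be told apart there.

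The remaining targets are given by role. Of the feedback genes, CCNG1, the cyclin G1 that recruits phosphatase to MDM2, rose in both endothelial cells (0.88 in HAEC and 0.78 in HUVEC), in IMR-90 (0.33 and 0.37) and by 1.14 (SE 0.26, adjusted p = 0.0031) with HRAS G12V. The last value was 1.73 without empty vector library 1 and 0.64 without empty vector library 2, and stayed called. PPM1D, the phosphatase that removes damage-induced phosphates from p53, was called higher in HAEC (0.26), HUVEC (0.29) and with HRAS G12V (0.55). The last call was lost without empty vector library 2, at 0.21, or HRAS library 1, at 0.46. FBXO22, part of a ubiquitin ligase that acts on p53 complexes, was called higher in HAEC, both IMR-90 comparisons and with HRAS G12V, from 0.15 in HAEC to 0.81 with HRAS G12V. Without empty vector library 2 the latter was 0.43, still called. NRG4 on the opposite strand overlaps 16.2% of its exon bases.

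Among the genes of growth arrest and the stress kinases, the sestrins SESN1 and SESN2, which hold back the growth kinase mTORC1, rose in HAEC (0.82 and 0.63), in HUVEC (0.88 and 0.74) and with the first doxorubicin treatment (0.81 and 1.05). SESN1 alone of the pair was also called in irradiated IMR-90, at 0.30 (SE 0.10, adjusted p = 0.023), a call lost without either control or irradiated library 2. SESN2 alone was called with HRAS G12V, at 1.06. Both were called lower in late-passage WI-38, SESN1 at -0.86 (SE 0.20, adjusted p = 0.010) and SESN2 at -0.69 (SE 0.21, adjusted p = 0.048). The SESN1 call was lost without 3 of the 4 libraries (late-passage library 1 and both proliferating libraries) and the SESN2 call without any of the 4.

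The polo-like kinases went different ways. PLK2, a kinase of centrosomes and stress, was the most abundant target per exon length in IMR-90 controls, and it fell from 867 and 805 CPM to 135 and 137 after 10 Gy and 106 and 114 at late passage. These are log2 fold changes of -2.62 (SE 0.06, adjusted p = 1.1e-12) and -2.93 (SE 0.07, adjusted p = 3.4e-13), the lowest of the 315 tests. In all other cells it was higher or not called: 199.8 and 191 in HAEC controls against 374, 374 and 381 after 4 Gy, and 112, 114 and 118 in HUVEC controls against 232, 241 and 232. In WI-38, PLK2 went from 219.9 and 216 to 380.5 and 359 after 10 Gy, 0.76 (SE 0.17, adjusted p = 0.0083), a call lost without either control library. With doxorubicin it went from 149 and 154 to 209 and 202, 0.44 (SE 0.13, adjusted p = 0.022), a call lost when any of the 4 libraries was left out. The responses of WI-38 and IMR-90 to 10 Gy differed by 3.31 (SE 0.21, adjusted p = 2.3e-09) for PLK2. PLK3, a related kinase of the damage checkpoint, rose by 1.95 and 1.73 in IMR-90 and by 1.95 (SE 0.16, adjusted p = 1.3e-06) with HRAS G12V, where it went from 11.3 and 13.9 to 44.8 and 52.6 CPM. In endothelium it was called at 0.23 in HAEC and 0.17 in HUVEC. The first was lost without control library 2, at 0.13, and was 0.35 without control library 1. The second was lost without 5 of the 6 libraries, all but control library 1.

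Of the death and survival genes, ZMAT3, an RNA-binding zinc finger protein, rose in 6 comparisons, with its highest values in HUVEC at 1.29 (SE 0.04, adjusted p = 4.2e-18) and late-passage IMR-90 at 1.29. EDA2R, a receptor of the tumour necrosis factor family, had its highest log2 fold change in HUVEC too, 1.87 (SE 0.13, adjusted p = 1.2e-11), where SPATA18, a gene of mitochondrial quality control from the group of metabolism below, was next at 1.65 (SE 0.10, adjusted p = 2.8e-12). TP53INP1, a cofactor of p53 and of autophagy, was called higher in HAEC (1.49), HUVEC (1.23), with doxorubicin (1.71) and HRAS G12V (1.09), and was called in neither IMR-90 comparison, with 0.15 at late passage. TP53I3, a quinone oxidoreductase, was likewise called in HAEC (0.73), HUVEC (0.17), with doxorubicin (0.56) and HRAS G12V (1.05). Its doxorubicin call was lost without control library 1 or treated library 2. PIDD1, which builds the caspase-2 platform, was called in 6 comparisons, from 0.38 in HAEC to 1.30 in irradiated WI-38. Of these calls 3 did not hold without single libraries: irradiated WI-38 lost it without either control library or without irradiated library 2, at 0.66, late-passage IMR-90 (0.44) without proliferating library 1, at 0.32, or late-passage library 1, at 0.23, and doxorubicin (0.64) without control library 2 or treated library 2. RPS27L, a ribosomal protein that steadies p53, was called in 5, and PHLDA3, an inhibitor of the kinase AKT, in 5. A same-strand gene, AC096677.2, overlaps 19.1% of the exon bases of PHLDA3. RPS27L with HRAS G12V, at 0.84 (SE 0.26, adjusted p = 0.019), dropped to 0.31 without empty vector library 2 and was lost. TRIAP1, an inhibitor of apoptosis, rose in both IMR-90 comparisons and by 1.28 (SE 0.23, adjusted p = 7.3e-04) with HRAS G12V (0.82 without empty vector library 2), and was called lower in HUVEC at -0.11 (SE 0.04, adjusted p = 0.043). That lower call was lost without control library 2 or 3 or irradiated library 1 or 3.

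The repair genes responded unevenly. DDB2, which finds ultraviolet damage, rose in HUVEC at 0.51 (SE 0.04, adjusted p = 3.2e-10) and in irradiated IMR-90 at 0.60 (SE 0.10, adjusted p = 2.1e-04), with smaller calls in late-passage IMR-90 (0.27) and with HRAS G12V (0.42). The late-passage call was lost without either control or late-passage library 1, at 0.066 without the latter, and was 0.44 without late-passage library 2, and the HRAS call was lost without either HRAS library. In HAEC DDB2 was at 0.05, not called. XPC, its partner in recognition, was called higher in HAEC (0.45), HUVEC (0.46) and with doxorubicin (0.39), the last lost when any of the 4 libraries was left out. Genes on the opposite strand overlap 39% of the exon bases of XPC. POLH, a polymerase that copies past lesions, and ASCC3, a helicase, rose in irradiated IMR-90 (1.38 and 1.20), in late-passage IMR-90 (1.36 and 1.21) and with HRAS G12V (0.62 and 1.09). POLH was called lower in HAEC, at -0.24 (SE 0.05, adjusted p = 2.8e-04).

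In the group of metabolism, mitochondria, lipids and signalling, all 8 genes were called higher with the first doxorubicin treatment, 7 in irradiated IMR-90, and 6 each in HAEC, HUVEC, late-passage IMR-90 and irradiated WI-38. Of all genes, 13.6% were called higher with doxorubicin, 26.6% in irradiated and 26.6% in late-passage IMR-90, 19.7% in HAEC, 18.6% in HUVEC and 8.89% in irradiated WI-38. FDXR, the ferredoxin reductase of mitochondria, was called in 5 comparisons, with its highest value in HUVEC, 1.08 (SE 0.05, adjusted p = 3.7e-15). CMBL, a hydrolase, was called in 6, from 0.46 in irradiated IMR-90 to 0.98 with doxorubicin. Its WI-38 irradiation call was lost without either control library or irradiated library 2. ABCA12, a lipid transporter, had the largest values of the list in irradiated WI-38 at 2.56 (SE 0.37, adjusted p = 2.5e-04), in IMR-90 (2.18 after 10 Gy and 2.25 at late passage) and with doxorubicin (2.19). These came from low levels: ABCA12 was at 0.0373 and 0.114 CPM in proliferating IMR-90 and 0.329 and 0.353 after 10 Gy, and at 0.402 and 0.226 in the WI-38 irradiation controls and 2.08 and 1.64 after 10 Gy. It was called lower in HAEC, at -0.92 (SE 0.35, adjusted p = 0.043), which was lost in 4 of the 5 fits that left out 1 library (the exception was irradiated library 3) and in DESeq2. In late-passage WI-38 it was the lowest target, at -1.31 (SE 0.35, adjusted p = 0.023), lost without late-passage library 2 or proliferating library 1. The doxorubicin call was lost without control library 2 or treated library 1.

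**Figure D4:**
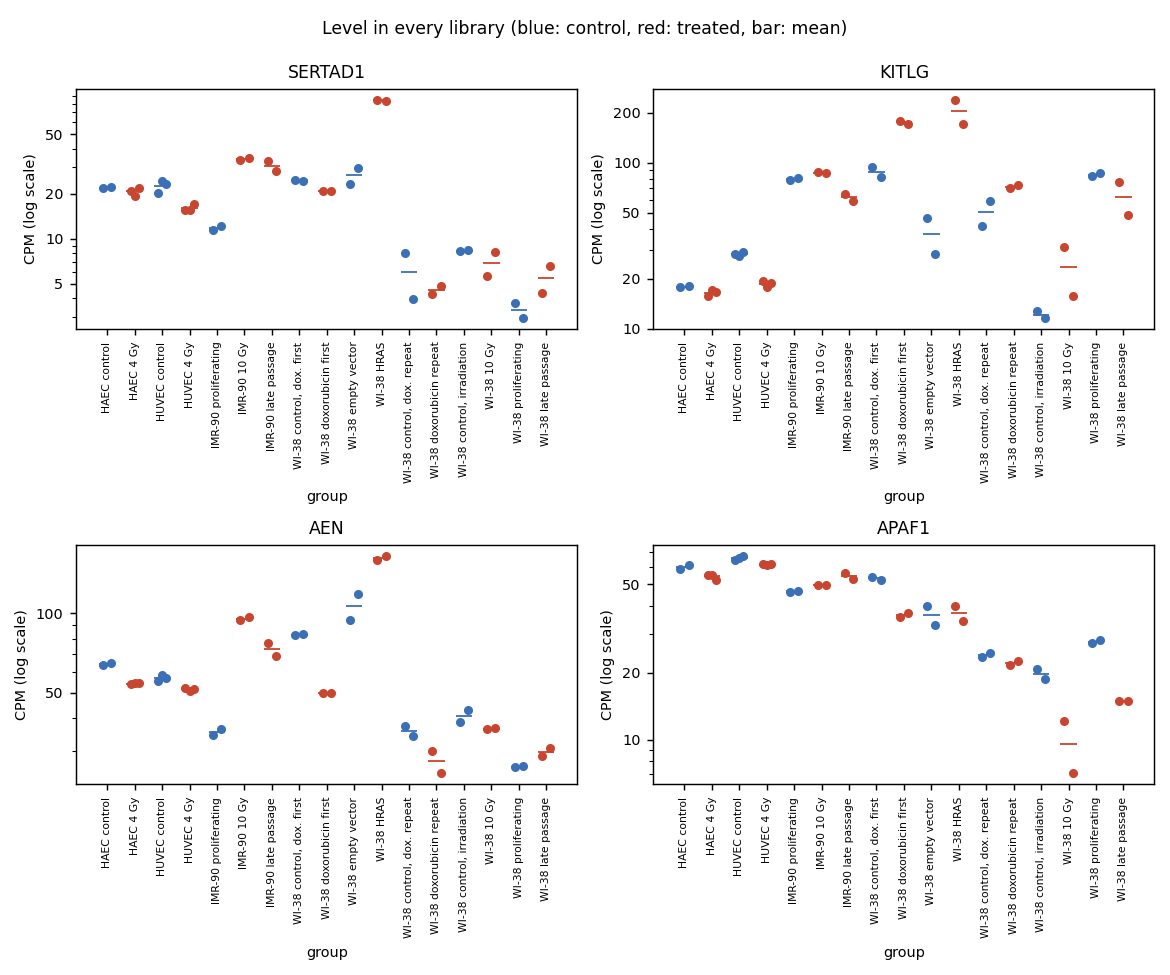
Each point is the level of 1 of the last 4 targets of the ranking in 1 library, in CPM on a log axis, for the 17 groups, with controls in blue, treated cells in red and a bar at the mean. SERTAD1 and AEN are highest in the HRAS G12V libraries, KITLG is high there and with doxorubicin, and APAF1 stands below its controls in 6 of the 9 pairs.

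The last 4 of the ranking were SERTAD1, KITLG, AEN and APAF1. SERTAD1, a regulator of cyclin-dependent kinase 4 and of E2F, rose with HRAS G12V from 23.4 and 29.6 to 84.5 and 83.7 CPM, 1.67 (SE 0.14, adjusted p = 1.4e-06), and in IMR-90 from 11.4 and 12.2 to 33.5 and 34.4 after 10 Gy and 32.9 and 28.3 at late passage. It fell in HUVEC from 20.2, 24.2 and 23.1 to 15.6, 15.6 and 16.98, -0.49 (SE 0.06, adjusted p = 2.3e-07). HAEC stood at 21.8 and 22.1 in controls and 20.99, 19.4 and 21.7 after 4 Gy, and the first doxorubicin experiment at 24.7 and 24.5 without and 20.8 and 20.8 with the drug, neither called. The second WI-38 set held the lowest levels, 8.01 and 3.93 in control and 4.30 and 4.86 in treated libraries around the doxorubicin repeat, 8.23 and 8.40 in control and 5.64 and 8.15 in treated libraries around irradiation, and 3.70 and 2.96 in proliferating and 4.36 and 6.62 in late-passage libraries around late passage, with no call.

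KITLG, the ligand of the receptor KIT, had the largest response of the 35 to HRAS G12V, from 46.6 and 28.2 to 239 and 172 CPM, 2.46 (SE 0.22, adjusted p = 3.4e-06). Doxorubicin took it from 93.7 and 82.3 to 179 and 172. It fell in HUVEC from 28.1, 27.2 and 28.9 to 19.3, 17.9 and 18.8, the lowest target there at -0.59 (SE 0.05, adjusted p = 1.6e-10), while HAEC stood at 17.7 and 18.1 in controls and 15.8, 17.1 and 16.6 after 4 Gy. In IMR-90 the levels were 79.2 and 81.4 in proliferating cells, 87.6 and 86.8 after 10 Gy and 64.7 and 58.95 at late passage, and the late-passage value alone passed the test, as lower, at -0.38 (SE 0.06, adjusted p = 9.8e-05). In the second WI-38 set KITLG went from 12.7 and 11.6 to 31.1 and 15.8 after 10 Gy, 0.95 (SE 0.29, adjusted p = 0.039), a call lost without either control library or at 0.35 without irradiated library 1. The other groups of that set stood far above the irradiation controls, at 41.8 and 58.8 in control and 70.5 and 73.03 in treated libraries around the doxorubicin repeat and at 82.9 and 86.2 in proliferating and 76.5 and 48.4 in late-passage libraries around late passage.

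AEN, a nuclease of apoptosis, rose in IMR-90 from 34.5 and 36.4 CPM to 93.9 and 96.6 after 10 Gy, 1.43 (SE 0.06, adjusted p = 3.4e-10), and 76.8 and 68.9 at late passage. With HRAS G12V it rose from 94.5 and 118 to 158 and 165. In 3 comparisons it fell: from 63.8 and 64.5 to 53.6, 54.3 and 54.2 in HAEC, from 55.2, 58.2 and 56.98 to 52, 50.8 and 51.6 in HUVEC, and from 82.4 and 83.2 to 49.96 and 49.9 with doxorubicin, -0.73 (SE 0.13, adjusted p = 0.0014). None of these 6 calls was lost by leaving out 1 library. In the second WI-38 set AEN was at 37.3 and 34.1 in control and 30.1 and 24.7 in treated libraries, at 38.8 and 42.8 in control and 36.3 and 36.6 in treated libraries, and at 26 and 26.3 in proliferating and 28.9 and 30.9 in late-passage libraries around doxorubicin, irradiation and late passage, with no call.

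APAF1, the scaffold of the apoptosome, was called lower in 5 comparisons and higher in 1. It went from 20.9 and 18.8 to 12.1 and 7.06 CPM in irradiated WI-38, -1.05 (SE 0.23, adjusted p = 0.0056), from 27.3 and 28 to 15 and 15.01 in late-passage WI-38, -0.88 (SE 0.23, adjusted p = 0.018), and from 54.05 and 52.4 to 35.8 and 37.1 with doxorubicin, -0.55 (SE 0.14, adjusted p = 0.011). The first was lost without control library 1 or irradiated library 2, and the other 2 were lost when any of their 4 libraries was left out. The endothelial calls were small, -0.14 (SE 0.04, adjusted p = 0.0071) from 58.7 and 60.9 to 55.4, 55.2 and 52.6 in HAEC and -0.10 (SE 0.04, adjusted p = 0.025) from 64.5, 65.8 and 67.4 to 61.7, 60.9 and 61.5 in HUVEC. The HAEC call was lost without control library 2 or irradiated library 3, and the HUVEC call without control library 2 or 3 or irradiated library 2 or 3. In late-passage IMR-90 APAF1 was called higher, from 46.4 and 46.8 to 56.1 and 53.05, 0.23 (SE 0.06, adjusted p = 0.0036), and irradiated IMR-90 stood at 49.6 and 49.8. The empty vector libraries, at 40.2 and 32.97, overlapped the HRAS G12V libraries, at 40.1 and 34.3. Those of the doxorubicin repeat, at 23.6 and 24.6 without and 21.8 and 22.7 with the drug, did not overlap but gave no call.

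The next question was where the same trigger gave different target responses. The responses of HUVEC and HAEC to 4 Gy differed for 13 of the 35 targets, 7 higher and 6 lower in HUVEC, beside 18% of all genes tested. EDA2R rose more in HUVEC, by a difference of 0.98 (SE 0.12, adjusted p = 5.1e-07), and so did ZMAT3, by 0.40 (SE 0.05, adjusted p = 5.4e-07). TP53I3 rose more in HAEC, the difference being -0.57 (SE 0.06, adjusted p = 1.2e-08). Leading changes also differed in name: CYFIP2 and TP53INP1 were the highest in HAEC, with AEN and ABCA12 the lowest, against EDA2R and SPATA18, and SERTAD1 and KITLG, in HUVEC.

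Irradiated and late-passage IMR-90, both set against the same proliferating libraries, differed for 7 targets, all with the irradiated value above, beside 10.6% of all genes. KITLG differed by 0.50 (SE 0.06, adjusted p = 1.7e-04), AEN by 0.39 (SE 0.06, adjusted p = 0.0015) and PLK2 by 0.31 (SE 0.06, adjusted p = 0.0054). ABCA12 and ACER2 had the highest values in both, and PLK2 the lowest. Markers moved with these groups. The summed fibroblast markers were at 14180 to 14930 CPM in proliferating IMR-90, 3149 to 3224 after 10 Gy and 4793 to 5142 at late passage, with all 8 detected and 7 and 6 of them called lower. The 5 epithelial markers summed to 13.05 to 13.61 CPM in proliferating cells, 65.06 to 68.44 after 10 Gy and 60.78 to 72.81 at late passage, with 4 of 5 called higher in both, EPCAM below 1 CPM throughout and CDH1 at 0 in proliferating and at most 0.11 in the other cells. The 7 endothelial markers, mostly TEK, summed to 246.6 to 248, 88.43 to 89.37 and 64.97 to 96.9 CPM, with 2 called lower after 10 Gy and 7 at late passage. The part of these in the target changes was not tested.

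Doxorubicin and HRAS G12V, in the same WI-38 set but with separate controls, differed for 18 of the 35 targets, 13 with the HRAS value above and 5 below, beside 35.6% of all genes. SERTAD1 differed by 1.91 (SE 0.19, adjusted p = 1.6e-05), PLK3 by 1.69 (SE 0.22, adjusted p = 1.2e-04) and AEN by 1.33 (SE 0.18, adjusted p = 1.8e-04), all higher with HRAS G12V. HRAS itself was at 36.05 and 47.04 CPM with the empty vector and 1944 and 1989 in the HRAS G12V libraries, 5.57 (SE 0.17, adjusted p = 1.5e-09), which matches the labels. The summed fibroblast markers were 6067 to 7089 CPM with the empty vector and 1044 to 1156 with HRAS G12V, and 4507 to 4577 without and 7949 to 8195 with doxorubicin. The summed endothelial markers went from between 61.9 and 67.78 to between 12.82 and 15.72 with HRAS G12V. With doxorubicin they went from between 96.03 and 99.83 to between 224.5 and 238.3. These sums mostly follow TEK, the 1 endothelial marker that averaged at least 1 CPM in WI-38. By gene, most of the 7 went the other way: 6 were called higher and 1 lower with HRAS G12V, and 1 higher and 4 lower with doxorubicin. The summed epithelial markers went from between 49.16 and 59.81 to between 54.62 and 58.82 with HRAS G12V and from between 28.99 and 31.75 to between 15 and 16.48 with doxorubicin. The part of the markers in the target differences was not tested.

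The doxorubicin treatment was deposited in both WI-38 sets. The responses differed for 6 targets, all smaller in the repeat, beside 4.42% of all genes: BTG2, SESN2, TP53INP1, TP53I3, CYFIP2 and CMBL. CYFIP2 differed by -1.86 (SE 0.31, adjusted p = 5.6e-04), TP53INP1 by -1.69 (SE 0.28, adjusted p = 6.1e-04) and SESN2 by -1.38 (SE 0.27, adjusted p = 0.0031). The sets differ in the share of protein-coding and mitochondrial counts given above, and set and experiment cannot be told apart. Within the second set, the responses to 10 Gy and to the doxorubicin repeat differed for 0 of the 35 targets in edgeR, beside 2.34% of all genes, whereas DESeq2 called 4. At an unadjusted p below 0.05 edgeR gave 13 higher and 1 lower with irradiation. Late-passage and irradiated WI-38 differed for 9 targets, all lower at late passage, beside 6.26% of all genes. The smallest adjusted p-values were those of ABCA12, -3.88 (SE 0.51, adjusted p = 2.8e-04), BTG2, -2.21 (SE 0.29, adjusted p = 2.9e-04), and DRAM1, -1.67 (SE 0.27, adjusted p = 0.0014). Each response of the second set was taken against its own controls, and these control groups differed in target levels, as given below. BTG2, for 1, was at 22.8 and 26.7 CPM in the irradiation controls and 60.6 and 60 in the proliferating controls. The part of the control levels in these differences was not tested.

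The same dose of 10 Gy was given to both fibroblast strains. Their responses differed for 14 targets, 13 lower and 1 higher in WI-38, beside 19.9% of all genes. The 1 higher was PLK2, and AEN at -1.66 (SE 0.20, adjusted p = 6.6e-06) and PLK3 at -2.00 (SE 0.36, adjusted p = 5.1e-04) were the lower ones with the smallest adjusted p after it. Strain and set of libraries cannot be told apart here.

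**Figure D5:**
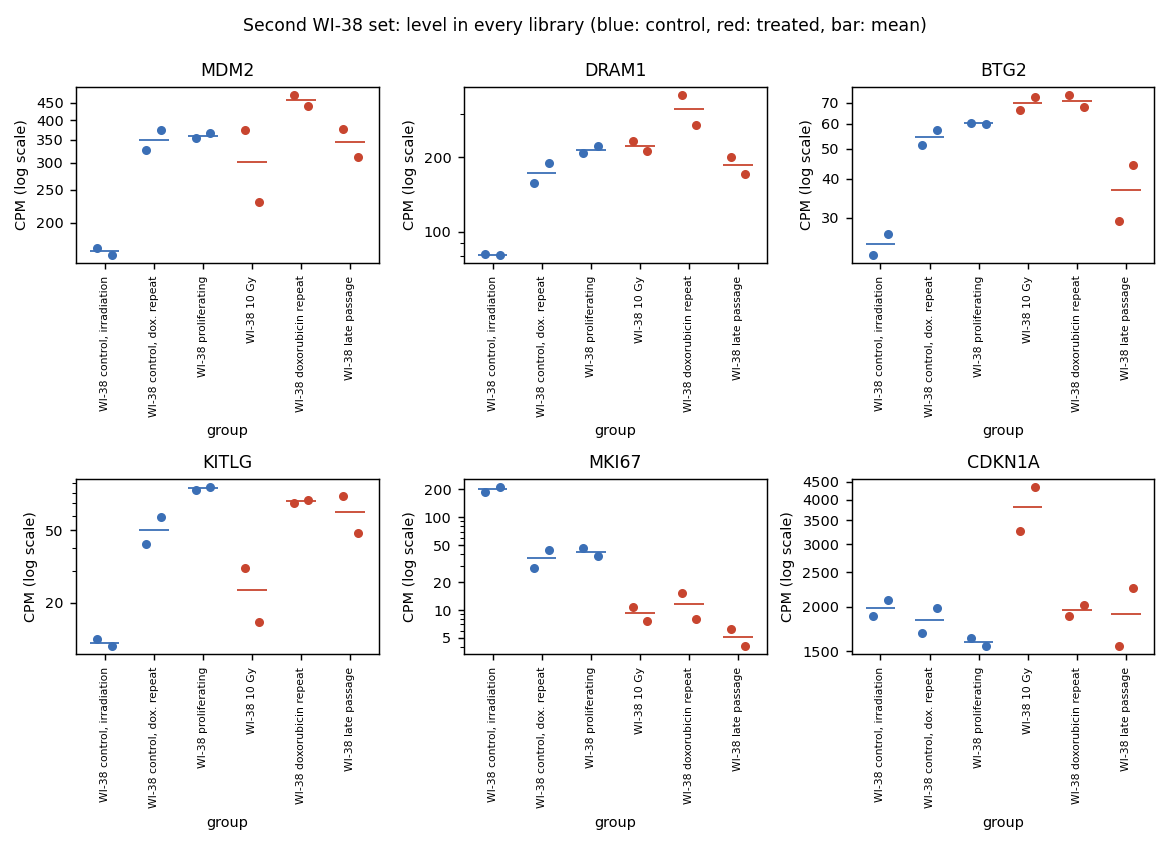
Each point is the level in 1 library of the second WI-38 set, in CPM on a log axis, for 4 targets, the proliferation gene MKI67 and CDKN1A, with controls in blue, treated cells in red and a bar at the mean. The irradiation controls are the lowest of the 3 control groups for MDM2, DRAM1, BTG2 and KITLG and the highest for MKI67.

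The 3 control groups of the second WI-38 set, all labelled as untreated or proliferating cells at level 25, did not have the same target levels. This comparison was added after the values were seen. Against the irradiation controls, 11 of the 35 targets were called higher and 0 lower in the controls of the doxorubicin repeat, beside 5.38% and 4.13% of all genes, and 15 higher and 2 lower in the proliferating controls, beside 10.5% and 8.6%. At an unadjusted p below 0.05 edgeR gave 17 higher and 1 lower in the first of these, and DESeq2 called 0 lower. These 2 comparisons share the irradiation controls. Mitochondrial genes took 6.31% and 6.99% of the counts in the irradiation controls. Their share was 3.58% and 5.11% in the repeat controls and 3.21% and 4.41% in the proliferating controls, and its part in the target levels was not tested. KITLG stood apart most, by 2.05 (SE 0.30, adjusted p = 6.1e-04) and 2.80 (SE 0.30, adjusted p = 5.2e-05), from 12.7 and 11.6 CPM to 41.8 and 58.8 in the repeat controls and to 82.9 and 86.2 in the proliferating controls. ABCA12 was next, at 1.92 and 2.04, followed in the proliferating controls by RRM2B at 1.75. The irradiation controls stood apart in proliferation genes too. MKI67 was at 189 and 213 CPM there, 28.4 and 43.9 in the repeat controls and 46.5 and 38.01 in the proliferating controls. Of 14 cell-cycle genes repressed downstream of p53, 14 were called lower in the repeat controls, with CDC20 at -3.91 (SE 0.26, adjusted p = 2.1e-06), and 13 in the proliferating controls, with CDC20 at -3.68 (SE 0.25, adjusted p = 2.8e-06). Without 1 of the irradiation control libraries the 11 higher calls fell to 5 or 6. The median log2 fold change of the 35 was 0.45 and 0.48 in these control comparisons, beside 0.49 for irradiation against the irradiation controls.

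MDM4, the partner of MDM2 that blocks p53, was called lower in irradiated IMR-90 (-1.07), late-passage IMR-90 (-0.93), with doxorubicin (-0.42), with HRAS G12V at -1.45 (SE 0.13, adjusted p = 3.1e-06) and in late-passage WI-38 (-0.69). It was at -0.09 in HAEC, -0.08 in HUVEC, 0.28 in the repeat and -0.45 in irradiated WI-38, not called. CDKN1A rose in 7 comparisons: 0.56 in HAEC, 0.89 in HUVEC, 1.82 and 1.42 in IMR-90, 1.72 with doxorubicin, 2.4 with HRAS G12V and 0.94 in irradiated WI-38. Its levels in the second WI-38 set were high already in controls, 1683 and 1983 CPM in the repeat controls, 1885 and 2088 in the irradiation controls and 1627 and 1546 in the proliferating controls, against 221 and 224 in the controls of the first set, levels that were scaled separately. It was at 0.09 in the repeat and 0.26 in late-passage WI-38.

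The other genes of the pathway were read from lists of regulators, of further p53 targets and of cell-cycle genes that p53 represses through CDKN1A. Of the regulators tested, 5 of 18 were higher and 9 lower in HAEC, 4 and 6 of 18 in HUVEC, 5 and 9 of 19 in irradiated IMR-90, 3 and 9 of 19 in late-passage IMR-90, 2 and 8 of 18 with doxorubicin and 5 and 4 of 18 with HRAS G12V. Beside these stand the shares of all genes called higher and lower, 19.7% and 19.9% in HAEC, 18.6% and 20.1% in HUVEC, 26.6% and 22.5% in irradiated IMR-90, 26.6% and 23.5% in late-passage IMR-90, 13.6% and 13.2% with doxorubicin and 27.1% and 18.9% with HRAS G12V. The higher regulators, at 26.3% in irradiated IMR-90, 27.8% with HRAS G12V and 22.2% in HUVEC, were thus near the share of all genes. In the second WI-38 set 1 of 19 regulators was higher and 0 lower in the repeat, 1 and 5 after 10 Gy and 0 and 2 at late passage. All genes there had 3.18% and 2.26% in the repeat, 8.89% and 6.09% after 10 Gy and 5.8% and 6.82% at late passage. The single higher calls, 5.26% of the regulators, were thus near those shares, as were the 10.5% lower at late passage. At an unadjusted p below 0.05 edgeR gave 0 regulators lower in the repeat and 1 higher at late passage. Genes of these lists are named by the smallest adjusted p in a comparison and direction. CHEK1, a checkpoint kinase, was the lower regulator so named in HAEC (-0.91), HUVEC (-0.53), with doxorubicin (-1.44) and in irradiated WI-38 (-1.35). CHEK2, the kinase downstream of ATM, was the higher one in the repeat at 1.22 (SE 0.19, adjusted p = 0.0015) and in irradiated WI-38 at 1.37 (SE 0.19, adjusted p = 1.7e-04), and ATR, the kinase of stalled replication, in both IMR-90 comparisons (0.57 and 0.46).

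Of the further p53 targets, 13 of 17 were called higher and 2 lower in HAEC, 13 and 1 of 16 in HUVEC, 15 and 0 of 17 in irradiated IMR-90, 11 and 1 of 17 in late-passage IMR-90, 13 and 1 of 18 with doxorubicin and 14 and 1 of 18 with HRAS G12V. The shares of all genes were 19.7% higher and 19.9% lower in HAEC, 18.6% and 20.1% in HUVEC, and 26.6% and 22.5% in irradiated IMR-90. Late-passage IMR-90 had 26.6% and 23.5%, doxorubicin 13.6% and 13.2%, and HRAS G12V 27.1% and 18.9%. In the second WI-38 set 6 of 18 were higher and 1 lower in the doxorubicin repeat, 10 and 0 after 10 Gy and 4 and 0 at late passage. All genes there had 3.18% and 2.26% in the repeat, 8.89% and 6.09% after 10 Gy and 5.8% and 6.82% at late passage. The comparisons with 0 lower had 0, 0 and 1 lower at an unadjusted p below 0.05 in edgeR. PTCHD4, a patched-like membrane protein, was called higher in all 9, and it had the smallest adjusted p in HAEC at 2.61 (SE 0.09, adjusted p = 1.4e-15), HUVEC at 2.34 (SE 0.10, adjusted p = 1.4e-15), the repeat at 2.54 (SE 0.25, adjusted p = 4.1e-05) and irradiated WI-38 at 4.17 (SE 0.27, adjusted p = 2.6e-07). In the repeat it went from 4.34 and 5.38 to 26.2 and 30.2 CPM and in late-passage WI-38 from 5.49 and 6.05 to 25.97 and 29.9. PTCHD4 was thus called higher also where the 35 targets had a median near or below 0. It was called higher in both comparisons of control groups as well, at 1.77 and 2.02. PURPL, a p53-regulated long noncoding RNA, had the smallest adjusted p in late-passage WI-38 at 3.47 (SE 0.34, adjusted p = 1.0e-05). GDF15, a stress cytokine, had it with HRAS G12V, at 4.96 (SE 0.16, adjusted p = 1.5e-09).

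The cell-cycle genes divided the comparisons differently from the targets. All 14 were called lower in HAEC, HUVEC, with doxorubicin, with HRAS G12V and in irradiated WI-38, 12 were lower in late-passage WI-38 and 2 in the doxorubicin repeat. Over all genes, 19.9% were lower in HAEC, 20.1% in HUVEC, 13.2% with doxorubicin, 18.9% with HRAS G12V and 6.09% in irradiated WI-38. Late-passage WI-38 had 6.82% of all genes lower and the repeat 2.26%. In irradiated IMR-90, 12 of the 14 were called higher and 0 lower, and in late-passage IMR-90 7 were higher and 1 lower. The shares of all genes were 26.6% higher and 22.5% lower in irradiated IMR-90, and 26.6% and 23.5% in late-passage IMR-90. At an unadjusted p below 0.05 edgeR gave 0 lower in irradiated IMR-90 too. MKI67 was at 19.8 and 17.4 CPM in the IMR-90 labelled proliferating, 31.3 and 28.03 after 10 Gy and 22.4 and 17.7 at late passage. AURKA, a mitotic kinase, had the smallest adjusted p in IMR-90, at 1.88 (SE 0.07, adjusted p = 6.6e-11) after 10 Gy and 1.34 (SE 0.07, adjusted p = 1.8e-09) at late passage. In late-passage WI-38, where no target was called higher, AURKA was called lower, at -2.24 (SE 0.22, adjusted p = 9.9e-06).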

How the data were processed

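Raw read counts per gene, whole numbers deposited by the authors with no normalization, were used for all 37 libraries. Reads were handled with bcl2fastq, cutadapt, STAR 2.4 and featureCounts on hg19, per the submitters' processing notes, which give no role or order for these tools. For the annotation release and strand, nothing is given in the sources used here. Of 57773 Ensembl identifiers, 51996 matched the table of gene names and 52338 had a symbol after GENCODE 29 was added. All 35 targets matched.

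Each set of libraries (HAEC, HUVEC, IMR-90, and the first and second WI-38 sets) was fitted on its own in edgeR 4.0.16 (R 4.3.3, limma 3.58.1), with filterByExpr, TMM factors and quasi-likelihood tests, and differences between sets in 1 fit over both. P-values were adjusted over all genes by the Benjamini-Hochberg method, with calls at 0.05. CPM were counts over the effective library size of the set, so levels were normalized separately between sets. The standard error was the fold change divided by the root of F. The scripts were tested on simulated data.

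The targets and gene lists were chosen with earlier results of these data known. All 35 are named: the first 8 and last 4 of the ranking by every library, the 2 highest and 2 lowest calls per comparison, the 3 smallest adjusted p per difference, MDM4 and CDKN1A throughout, HRAS in its own comparison, and at most 1 gene per pathway list and direction, by adjusted p. Some genes that this rule names are not reported here. Other genes named, among them MKI67 and PTCHD4 across comparisons, were chosen after their values were seen. The 2 comparisons between control groups were added after seeing the data. Alternatives were DESeq2 1.42.0, its size factors, total count scaling, no filter, other libraries in the fit, a replicate block and leaving out each library. Gene coordinates of the counts were not used. Promoter windows came from RefSeq on GRCh38.p14, a build other than that of the counts.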

Additional observations from a re-analysis of the deposited data

Results flagged for a closer look

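The results here are targets whose responses under like contrasts differed by edgeR's test of the difference itself, the 3 with the smallest adjusted p for each pair of contrasts. Groups held 2 or 3 libraries, too few for a test of single outlying libraries.

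Between HUVEC and HAEC after 4 Gy, EDA2R differed by 0.98 (SE 0.12, adjusted p = 5.1e-07), with log2 fold changes of 1.87 and 0.89. ZMAT3 differed by 0.40 (SE 0.05, adjusted p = 5.4e-07), and TP53I3, which rose more in HAEC, by -0.57 (SE 0.06, adjusted p = 1.2e-08). Between irradiated and late-passage IMR-90, which share controls, KITLG differed by 0.50 (SE 0.06, adjusted p = 1.7e-04), AEN by 0.39 (SE 0.06, adjusted p = 0.0015) and PLK2 by 0.31 (SE 0.06, adjusted p = 0.0054). All 3 values are irradiated minus late passage. PLK2 was lower than in proliferating cells in both.

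HRAS G12V minus the first doxorubicin treatment gave 1.91 (SE 0.19, adjusted p = 1.6e-05) for SERTAD1, 1.69 (SE 0.22, adjusted p = 1.2e-04) for PLK3 and 1.33 (SE 0.18, adjusted p = 1.8e-04) for AEN. AEN rose with the oncogene, at 0.60, and fell with the drug, at -0.73. The doxorubicin repeat minus the first treatment gave -1.86 (SE 0.31, adjusted p = 5.6e-04) for CYFIP2, -1.69 (SE 0.28, adjusted p = 6.1e-04) for TP53INP1 and -1.38 (SE 0.27, adjusted p = 0.0031) for SESN2. The controls of CYFIP2 stood at 2.42 and 2.47 CPM in the first set and 33.95 and 32.5 in the second, scaled separately.

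Late-passage minus irradiated WI-38 gave -3.88 (SE 0.51, adjusted p = 2.8e-04) for ABCA12, -2.21 (SE 0.29, adjusted p = 2.9e-04) for BTG2 and -1.67 (SE 0.27, adjusted p = 0.0014) for DRAM1. These 2 responses have separate controls, and all 3 targets were lower in the irradiation controls than in the proliferating controls. In CPM per kb of exon, the control means were 0.033 and 0.137 for ABCA12, 8.99 and 21.87 for BTG2 and 19.37 and 51.39 for DRAM1. WI-38 minus IMR-90 after 10 Gy gave 3.31 (SE 0.21, adjusted p = 2.3e-09) for PLK2, -1.66 (SE 0.20, adjusted p = 6.6e-06) for AEN and -2.00 (SE 0.36, adjusted p = 5.1e-04) for PLK3. PLK2 was 0.76 in WI-38 and -2.62 in IMR-90.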

How the results depend on the processing

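No member named in the text changed direction from a called value under any alternative run. Of 216 called values, those of the 2 control comparisons included, DESeq2 lost 1, its size factors 3, no filter 2, total count scaling 31 and a fit of all 37 libraries 34. Fits of the compared groups alone lost 15 of 155, and leaving out 1 library lost the call in 147 refits and kept it in 809. The causes were not tested.

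With total count scaling the targets called lower were 2 in HAEC, 3 in HUVEC, 4 in irradiated and 5 in late-passage IMR-90, 4 with doxorubicin, 2 with HRAS G12V and 3 in late-passage WI-38. Medians became 0.61 in HAEC, 0.72 and 0.46 in IMR-90, 0.47 with doxorubicin and 0.53 with HRAS G12V. Targets that differed became 4 between the IMR-90 comparisons, 11 between HRAS G12V and doxorubicin and 8 between the strains, and 5 were called higher in all but 2 comparisons, against 2 at a threshold of 0.01.

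In a fit of all 37 libraries those called lower were 0 in HAEC, 1 in HUVEC, 1 in late-passage IMR-90 and 2 with HRAS G12V. Of all 36614 genes tested in that fit, 1627 were lower in HAEC, 1826 in HUVEC, 3806 in late-passage IMR-90 and 6274 with HRAS G12V. The doxorubicin repeat had 2 higher and 2 lower, late-passage WI-38 1 and 9, the repeat controls 19 and 1, and the proliferating controls 5 lower. Over all 36614 genes, 3141 were higher and 3323 lower in the repeat and 4556 and 4592 in late-passage WI-38. The repeat controls had 4445 and 4371 and the proliferating controls 6332 lower. With the compared groups alone, 4 targets were lower with doxorubicin, 0 higher in the repeat, 0 lower in irradiated WI-38 and 9 lower in the proliferating controls. Over all genes, 6323 of 27132 were then lower with doxorubicin and 853 of 29610 higher in the repeat. Irradiated WI-38 had 1321 of 28566 lower and the proliferating controls 7427 of 28572. Without the filter, 12 differed between the IMR-90 comparisons and 6 between irradiation and the repeat. DESeq2 gave 4 for the latter, 11 for the repeat against the first treatment and 4 lower in the proliferating controls.

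Leaving out 1 library, lower calls ranged from 2 to 3 in HAEC, 3 to 5 in HUVEC, 2 to 4 in late-passage IMR-90, 0 to 2 with HRAS G12V, 0 to 3 in irradiated WI-38, 0 to 2 in late-passage WI-38 and 0 to 1 in the proliferating controls, and were 1 throughout with doxorubicin. Higher calls ranged from 0 to 1 in the repeat, 4 to 11 in irradiated WI-38 and 5 to 13 in the repeat controls. Medians ranged from 0.60 to 0.80 in late-passage IMR-90, 0.68 to 1.01 with HRAS G12V and -0.037 to 0.159 in the repeat. The differences between responses were not refitted without single libraries.

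Same replicate numbers were not taken as pairs. Deviations of same-numbered libraries correlated at -0.06, -0.32 and -0.33 in HUVEC, with 3 pairs. Groups of 2, too few to show pairing, gave -0.21 in late-passage WI-38 to 0.50 in irradiated WI-38 and 0.72 with HRAS G12V, where a replicate block moved the calls over all genes from 7957 higher and 5539 lower to 8455 and 5701. A replicate block lost 5 of the 216 calls, left 3 lower in HUVEC and gave 1 lower with HRAS G12V. Low counts limit ABCA12.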

Other observations

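Per exon length, the 35 targets differed widely in level in the control groups, the empty vector group included. PLK2 had the highest median over the 8 control groups, 43.4 CPM per kb of exon, and ranged from 24.01 in HUVEC to 175 in proliferating IMR-90. CCNG1 followed at 39.9 and TRIAP1 at 28.3, whereas ABCA12 had the lowest median at 0.030. EDA2R was at 0.26 in HUVEC controls and 2.24 in HAEC controls. These levels were scaled separately between sets and are given as values only.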
